A study of Danio rerio with 24 samples.

Results

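Genes for translation factors and for building the ribosome were followed in the zebrafish caudal fin before and after amputation, in larvae and in adults. They were chosen by symbol: probe sets whose single annotated gene is an initiation factor (eif1 to eif6), an elongation factor (eef1, eef2), an RNA polymerase I subunit (polr1) or one of a fixed set of nucleolar and ribosome assembly factors, such as fibrillarin (fbl), nucleolin (ncl), nucleophosmin (npm1), dyskerin (dkc1), the nop, nol, utp and rrp genes, bop1, pes, wdr12 and gnl3. The rule used no measured value. It found 133 probe sets of 110 genes among the 15502 probe sets tested, and 17 of these genes had more than 1 probe set. All 133 entered the tests, and 39 of them, for 36 genes, were called in at least 1 of the 6 comparisons with unamputated fin.

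Each of 8 groups held 3 arrays. Larval fins of AB strain fish came from an unamputated group at 2 days post fertilization, the age at which other larvae were amputated, and from fins that had regenerated for 1, 2 or 3 days after the cut (days post amputation, dpa). Each larval replicate was a pool of 150 fins. Larvae at 2 and 3 dpa had been kept for 1 hr in water with the solvent DMSO, and no such exposure is given for the unamputated and 1 dpa larvae. Adult fins came from AB males, unamputated or at 1, 3 and 5 dpa, with 10 fish pooled per replicate. The regenerating adults had been injected with a phosphatidylcholine liposome vehicle, which is not given for unamputated fish, and their tissue reached up to 2 ray segments proximal to the cut. Larval RNA (100 ng) went through 2 rounds of amplification and adult RNA (2.5 µg) through 1, so age, RNA input and labelling cannot be told apart between larvae and adults. In larvae days after amputation are also days of age, and in adults amputation, injection and array processing cannot be told apart. Some labels conflict: the description field of unamputated adults also names days after amputation, the source names of the first larval groups repeat 1 replicate number, and the titles were followed.

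Initiation factors bring the small ribosomal subunit to the messenger RNA and its start codon. The eIF4 factors bind the cap and unwind the message, eIF3 bridges it to the subunit, and eIF2, recharged by eIF2B, delivers the initiator tRNA. New ribosomes are made in the nucleolus, where RNA polymerase I transcribes the ribosomal RNA, small nucleolar RNPs modify it, the small subunit processome cuts and folds it, and further factors assemble the large subunit. Growth signals through the kinase TOR adjust both, among other ways through the eIF4E-binding proteins and eEF2 kinase. The binding proteins hold eIF4E back from its work in initiation, and eEF2 kinase slows elongation.

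Values are the authors' linear ratios, in which each probe set is scaled to a reference that the sources used here do not state. A ratio therefore compares arrays for 1 probe set and gives no level that could be set against another gene. Changes are given on the log2 scale with the standard error from limma (3 arrays per group, 12 arrays per fit). A probe set is said to have risen or fallen where its Benjamini-Hochberg adjusted p, over all 15502 probe sets, was under 0.05 and the change was at least 2-fold (1 on the log2 scale). The labels say that the replicates are separate pools of fish, but not that they were raised or amputated separately.

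Replicate arrays correlated at 0.793 to 0.939 over all probe sets, except in larvae at 3 dpa, where replicate 3 stood apart (0.629 to 0.808). The median change of all probe sets was -0.17, -0.18 and -0.17 at adult 1, 3 and 5 dpa, and the 18 hybridisation control probe sets averaged 0.10 to 0.78 (log2) on the unamputated adult arrays against -1.09 to -0.72 on the regenerating ones. These shifts run with amputation, and their part in the results was not tested beyond the rescaled values given beside them. Ratios cannot show whether a tissue marker is present, but they compare it between groups. Epidermal markers averaged 1.24 to 1.60 (log2 ratio) in unamputated adult fin and 1.26 to 1.58 at 1 dpa. Adult bone markers moved, from 1.24 to 1.95 in unamputated fin to 0.62 to 0.89 at 1 dpa and 2.90 to 3.06 at 5 dpa. Fin fold and fin ray markers averaged -5.17 to -4.89, -6.06 to -4.83 and -1.94 to -1.67 in the same groups. The part of such tissue differences in the results was not tested. Muscle markers averaged 3.44 to 6.59 in unamputated and 1 dpa larvae and -0.20 to 0.55 at 2 and 3 dpa, where 15 of 17 muscle and 6 of 8 erythrocyte probe sets fell. In pooled tissue, fewer cells of a type and less RNA per cell cannot be told apart.

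One day after amputation of the adult fin more of these genes read higher than lower. Of the 133 probe sets, 24 rose and 3 fell against unamputated fin, that is 18.0% higher and 2.26% lower, where over all probe sets 8.68% were called higher and 7.4% lower, and 16.1% in either direction. With the adjusted p alone and no minimum change, 68 members were higher and 5 lower (51.1% and 3.76%, against 17% and 29.2% of all probe sets). The 3 arrays at 1 dpa lay wholly above the 3 unamputated arrays for 74 members and wholly below for 11 (55.6% and 8.27%, against 19.7% and 36.8% of all probe sets). The median member changed by 0.45, or by 0.62 relative to the median of all probe sets. With every array centred on its median the counts without overlap were 85 and 5 (63.9% and 3.76%, against 25.3% and 27.8% of all probe sets), and after quantile normalization 70 and 7 (52.6% and 5.26%, against 21.9% and 31.9%). The share called higher moved more with the scaling: it was 24.8% of members against 10.8% of all probe sets with centred arrays, but 8.27% (11 members, with 1 lower) against 6.16% after quantile normalization, where it lay near the background.

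**Figure D1:**
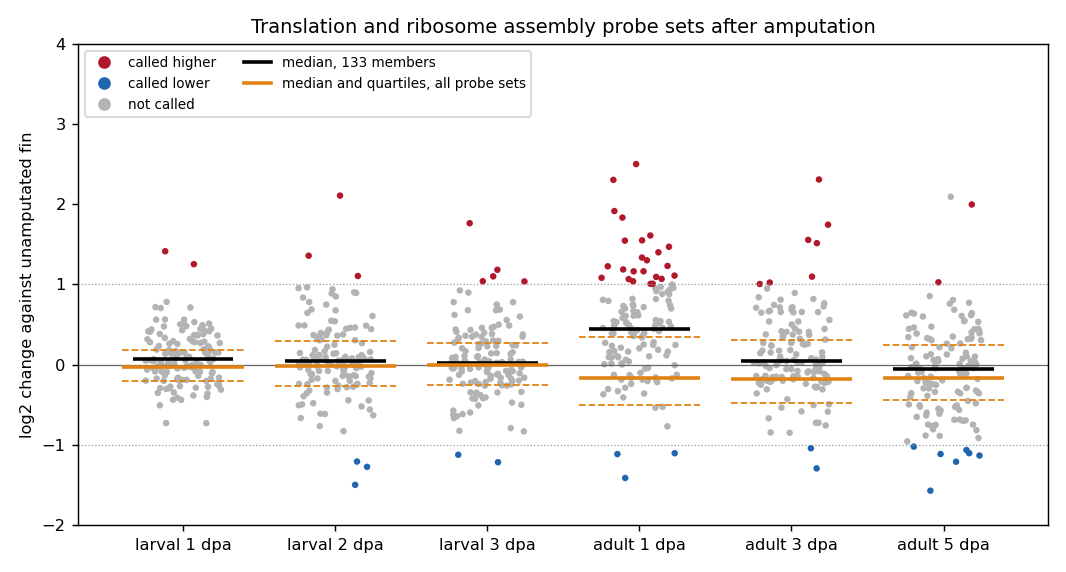
Change of each of the 133 member probe sets against unamputated fin (vertical axis, log2) in larvae at 1, 2 and 3 dpa and adults at 1, 3 and 5 dpa; red and blue points were called higher or lower, grey points were not called, black bars mark the members' median and orange marks the median and quartiles of all 15502 probe sets. At adult 1 dpa 104 of 133 members lie above 0 and 24 are called higher; by adult 5 dpa 59 lie above 0, and 2 are called higher and 7 lower.

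With the 2-fold minimum the excess of higher calls was not seen on the later days. At 3 dpa 7 members rose and 2 fell (6.77% called, against 14.3% of all probe sets, 8.1% higher and 6.19% lower), and at 5 dpa 2 rose and 7 fell (6.77% against 11.5%, 7.01% higher and 4.46% lower), so in both comparisons the called share lay below that of the array as a whole. Without the minimum change 30 were higher and 14 lower at 3 dpa (22.6% and 10.5%, against 15.4% and 28.3% of all probe sets) and 14 higher and 33 lower at 5 dpa (10.5% and 24.8%, against 12.3% and 22%). With centred arrays this split was 37 and 5 at 3 dpa (18.9% and 17.1% of all probe sets) and 21 and 19 at 5 dpa (15.3% and 11.6%). Centred arrays with the minimum kept gave 2 rises and 2 falls at 5 dpa (1.5% each, against 8.52% and 2.83% of all probe sets). Pools lay wholly above the unamputated ones for 34 members at 3 dpa and wholly below for 18 (25.6% and 13.5%, against 18.4% and 37.6% of all probe sets), and at 5 dpa for 30 and 41 (22.6% and 30.8%, against 17.7% and 37.4%). From 1 to 3 dpa the median member changed by -0.31, and 48 members at 3 dpa lay wholly below 1 dpa against 1 above (36.1% and 0.752%, against 10.4% and 8.92% of all probe sets). From 3 to 5 dpa the same counts were 46 and 2 (34.6% and 1.5%, against 9.68% and 9.59%), with a median of -0.24. Single calls were few in these steps: 1 member fell from 1 to 3 dpa (0.752% called, against 2.48% of all probe sets, 2.09% higher and 0.393% lower) and none was called from 3 to 5 dpa (0.0516% of all probe sets, 0.0387% higher and 0.0129% lower). Dropping the minimum gave 13 lower and 0 higher in the first step (9.77% and 0%, against 1.54% and 2.95% of all probe sets) and 0 in the second. The count of 13 rests on single arrays and on the processing. It was 2 without replicate e at 1 dpa and 3 without replicate c at 3 dpa. Quantile normalization gave 2 and a fit of the 2 groups alone 0, while centred arrays gave 11.

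The factors that deliver the initiator tRNA had the highest median of any role at adult 1 dpa. All 10 probe sets of eIF2, eIF2B and the related eif2a and eif2d lay above 0 there without overlap between groups. Of all probe sets 39.3% lay above 0, and 19.7% were higher without overlap. Their median change was 1.06, and 5 of them rose, where 8.68% of all probe sets were called higher. The ratio of eif2b3, the gamma subunit of the exchange factor eIF2B, was 0.468, 0.506 and 0.581 in the 3 unamputated adult pools and 1.39, 1.99 and 2.25 at 1 dpa. It was 1.81, 1.59 and 1.12 at 3 dpa and 0.952, 1.103 and 1.11 at 5 dpa. Every regenerating pool lay above every unamputated one, and the rise was 1.83 ± 0.21 (adjusted p = 0.00028), 1.51 ± 0.21 (0.0007) and 1.03 ± 0.21 (0.0061) on the 3 days. It was the only member besides 1 probe set of eif4a1a to be called higher on all 3 days. The 5 dpa call is close to the threshold, with a change of 0.96 after quantile normalization.

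The alpha subunit of eIF2, whose phosphorylation blocks initiation under stress, is encoded by a pair of genes. For eif2s1a the ratio was 0.435, 0.467 and 0.395 before amputation and 1.14, 1.36 and 1.47 at 1 dpa, then 0.972, 0.814 and 0.650 at 3 dpa and 0.828, 0.564 and 0.520 at 5 dpa. The groups did not overlap with unamputated fin on any day, and the rise at 1 dpa was 1.61 ± 0.20 (adjusted p = 0.00039), with 0.89 ± 0.20 at 3 dpa and 0.53 ± 0.20 at 5 dpa. Its paralogue eif2s1b changed by 0.39 ± 0.18 at 1 dpa and was not called. Also called at 1 dpa were eif2s2, the beta subunit (1.23 ± 0.26, adjusted p = 0.0044), eif2b1, the alpha subunit of eIF2B (1.34 ± 0.18, adjusted p = 0.0006), and eif2a, which in spite of its symbol encodes a separate initiation factor (1.55 ± 0.20, adjusted p = 0.00046). Of these, eif2a was still called at 3 dpa (1.02 ± 0.20, adjusted p = 0.0033). The group's median came down to 0.60 at 3 dpa and 0.31 at 5 dpa, with 10 of 10 probe sets still above 0 at 5 dpa. It was 1.20 at 1 dpa with centred arrays and 0.87 after quantile normalization.

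**Figure D2:**
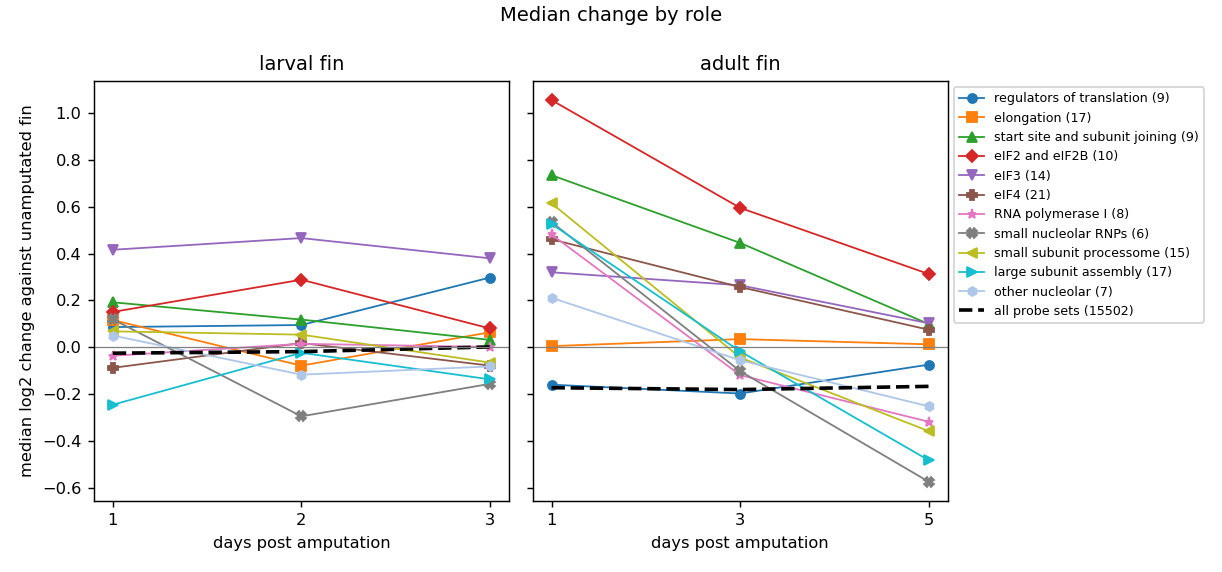
Median log2 change against unamputated fin for each role (lines) by days after amputation, larvae in one panel and adults in the other; the dashed line is the median of all probe sets. In adults eIF2 and eIF2B start highest (1.06) and stay above 0, while the small subunit processome goes from 0.62 at 1 dpa to -0.36 at 5 dpa and the large subunit factors from 0.53 to -0.48; in larvae the medians stay between -0.30 and 0.47.

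Among the cap-binding and scanning factors 5 of 21 eIF4 probe sets rose at adult 1 dpa and 1 fell (median 0.46). Over all probe sets 8.68% were called higher there and 7.4% lower. The scaffold protein eif4g3b had ratios of 0.965, 0.666 and 1.097 before amputation and 1.85, 3.52 and 2.31 at 1 dpa, a rise of 1.47 ± 0.29 (adjusted p = 0.003), and was still called at 3 dpa (1.01 ± 0.29, adjusted p = 0.018). The related eif4g2a, which acts in cap-independent initiation, was called at 3 dpa alone and on 1 of its 2 probe sets (1.098, adjusted p = 0.00049), where its 3 ratios of 1.81, 1.84 and 1.83 all exceeded the unamputated 0.756, 0.899 and 0.917. The other probe set gave 0.71. Smaller rises at 1 dpa were those of eif4bb, a helper of the eIF4A helicase (1.16), of 1 of 2 probe sets of the cap-binding gene eif4e1c (1.08) and of eif4e2rs1 (1.09). The cap-binding paralogue eif4ea changed by -0.01 at 1 dpa and by -0.56 at 5 dpa and was not called.

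Genes of the eIF4A helicase and its relatives did not move together. For eif4a2 the ratio was 1.57, 2.16 and 1.92 in unamputated adult fin and 1.00, 0.740 and 0.465 at 1 dpa, 0.615, 0.922 and 0.780 at 3 dpa and 0.754, 1.11 and 0.763 at 5 dpa. All 9 regenerating pools lay below all 3 unamputated ones, and eif4a2 fell by 1.41 ± 0.28 (adjusted p = 0.0031), 1.29 (0.0052) and 1.12 (0.014), the only member called lower on all 3 days. At 5 dpa the change was -0.98 with centred arrays, just under the minimum. For eif4a1a, 1 of 2 probe sets rose on every day, by 2.30 ± 0.51 at 1 dpa (adjusted p = 0.0054), but its unamputated ratios were 0.899, 0.868 and 0.243 and the other probe set changed by 0.48 at 1 dpa. With both probe sets averaged the changes at 3 and 5 dpa were 0.88 and 0.82, and neither was called. A further paralogue, eif4a1b, changed by 0.42 ± 0.10 at 1 dpa (adjusted p = 0.0074, no overlap), 0.37 at 3 dpa and 0.35 at 5 dpa, under the minimum each time. The related eif4a3, a part of the exon junction complex, changed by 0.04 at 1 dpa. Both were chosen after their values were seen.

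Single arrays also weigh on eif5a2, whose protein eases the ribosome through difficult stretches: its ratios were 0.740, 0.518 and 0.233 before amputation and 1.00, 6.39 and 2.54 at 1 dpa. On that probe set, 1 of 2, the rise was 2.50 ± 0.77 (adjusted p = 0.023), and it lost the call when either of 2 unamputated or either of 2 regenerating arrays was left out. At 3 dpa it rose by 2.31 ± 0.77 (adjusted p = 0.034), a call lost without unamputated replicate 2 or 3 or replicate a or b at 3 dpa, and at 5 dpa it stood at 2.09 (adjusted p = 0.057). The other probe set changed by 0.88 ± 0.18 at 1 dpa (adjusted p = 0.0038, no overlap) and 0.73 at 3 dpa, under the minimum. Of the start-site and joining factors, eif1axb rose on 1 of 3 probe sets (1.04 ± 0.15, adjusted p = 0.00079), with 0.42 and 0.95 on the others. All 9 probe sets of that role lay above 0 at 1 dpa, and eif6, which keeps the ribosomal subunits apart until they mature, changed by 0.81 without being called. None of the 14 probe sets of eIF3 was called on any adult day, and their median was 0.32, 0.26 and 0.10. Over all probe sets 16.1%, 14.3% and 11.5% were called in either direction on these days.

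**Figure D3:**
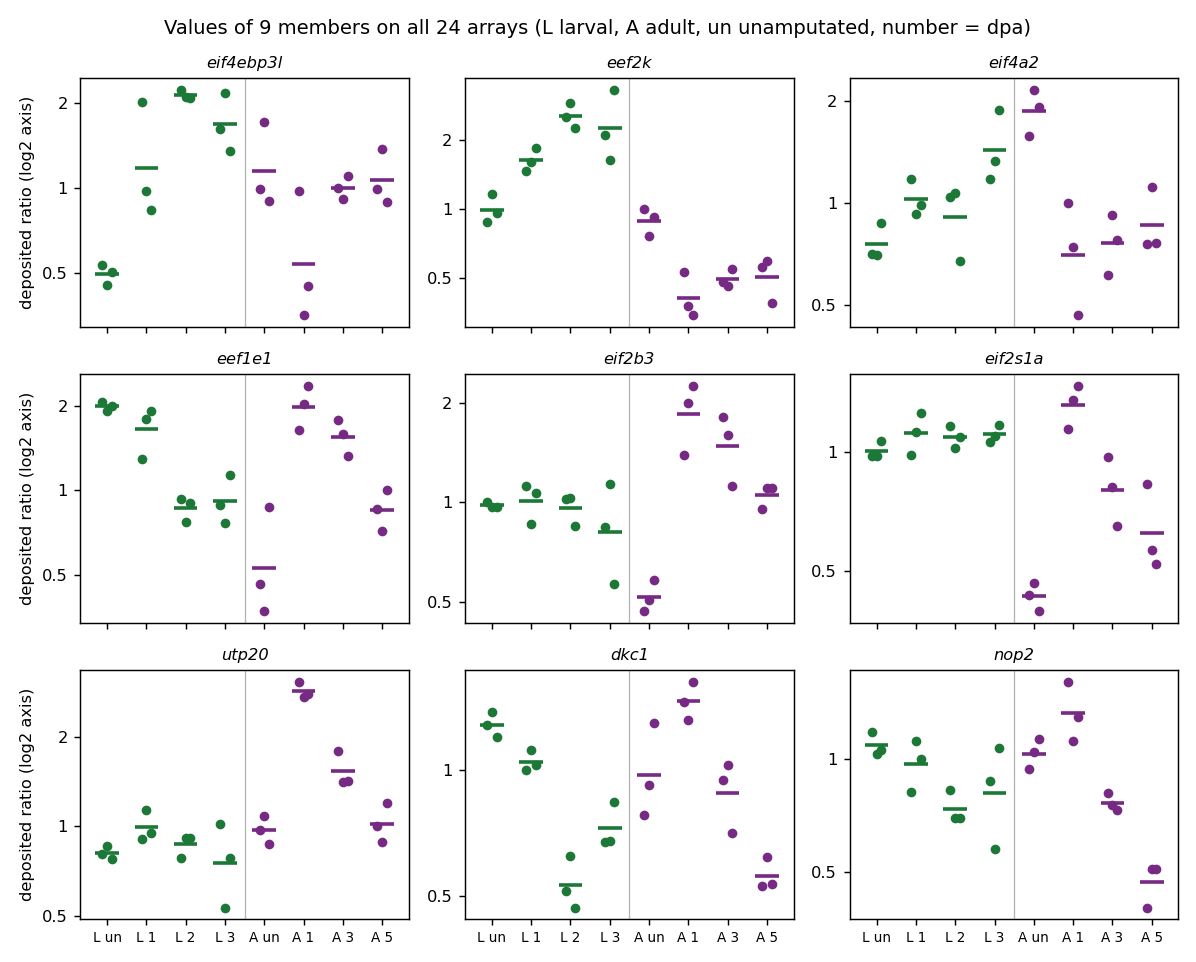
Deposited ratio (log2 axis, relative to each probe set's own reference) of 9 members on all 24 arrays, grouped by age and days after amputation; points are arrays and bars the mean of log2. eif2b3, eif2s1a, utp20 and eef1e1 have all 3 adult 1 dpa arrays above all 3 unamputated ones, eef2k and eif4a2 have them below, and in larvae eif4ebp3l and eef2k lie higher and eef1e1 and dkc1 lower at 2 dpa than before amputation.

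Elongation factors showed little shared movement in adults (median 0.00 at 1 dpa, 2 of 17 called, both higher: eef1e1 and the eif5a2 probe set described above). Over all probe sets 8.68% were called higher there and 7.4% lower. The human counterpart of eef1e1 is a part of the aminoacyl-tRNA synthetase complex and not an elongation factor proper. Its ratio was 0.461, 0.369 and 0.870 before amputation, 1.65, 2.04 and 2.37 at 1 dpa, 1.78, 1.59 and 1.33 at 3 dpa and 0.855, 0.718 and 1.00 at 5 dpa. The 1 and 3 dpa pools lay above all unamputated ones, with rises of 1.92 ± 0.29 (adjusted p = 0.00088) and 1.56 ± 0.29 (adjusted p = 0.0026), while at 5 dpa the groups overlapped. The elongation factor gene eef2b changed by 0.80, 0.68 and 0.77 on the 3 days, under the 2-fold minimum each time, and eef1a1l1, an eEF1A gene, by 0.06 at 1 dpa. Its paralogue eef1a1a changed by -0.54 there (adjusted p = 0.0092), with eef1a1b at -0.33 and eef1a1l3 at -0.19. These 3 lay wholly below unamputated fin, as did 36.8% of all probe sets, and none was called. The last 2 were chosen after their values were seen. One of 3 probe sets of eef2l2 fell at 3 dpa (-1.04, adjusted p = 0.031), and the other 2 changed by -0.22 and -0.31.

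Of 9 probe sets of regulators of translation none rose and 2 fell at adult 1 dpa, with a median of -0.16 beside -0.17 over all probe sets. Of all probe sets 8.68% were called higher there and 7.4% lower. The kinase gene eef2k had ratios of 1.00, 0.764 and 0.925 before amputation against 0.533, 0.379 and 0.344 at 1 dpa, with 0.482, 0.460 and 0.547 at 3 dpa and 0.561, 0.591 and 0.389 at 5 dpa. All regenerating pools lay below all unamputated ones, and at 1 dpa it fell by 1.12 ± 0.20 (adjusted p = 0.0022), although with centred arrays the change was -0.97 and missed the minimum. For the eIF4E-binding protein gene eif4ebp3l the ratios at 1 dpa (0.973, 0.353, 0.450) overlapped the unamputated ones (0.995, 1.72, 0.899). Its change of -1.11 ± 0.36 passed the test (adjusted p = 0.03) but not with centred arrays (-0.96, adjusted p = 0.056). Of the other binding protein genes, eif4ebp1 changed by 0.02 at 1 dpa and eif4ebp2, chosen after its values were seen, by -0.16, neither called. The 3 probe sets of eif2ak3, which encodes the stress kinase PERK, were not called on any adult day. In the other direction, the methyltransferase gene eef1akmt2 stood at 0.44 at 1 dpa (adjusted p = 0.016, no overlap) and eif4enif1, whose protein carries eIF4E to the nucleus, at 0.52 with overlap, both chosen after their values were seen and neither called. Whether the regulators differ from the other roles was not tested.

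The medians of the nucleolar roles were above 0 at adult 1 dpa and lower on each later day. Of 15 small subunit processome probe sets 14 lay above 0 at 1 dpa (39.3% of all probe sets did), with a median of 0.62. Of these probe sets 4 rose, where 8.68% of all probe sets were called higher. The ratio of utp20, a large scaffold of the processome, was 0.970, 1.09 and 0.873 before amputation and 3.06, 2.71 and 2.78 at 1 dpa. At 3 dpa it was 1.79, 1.41 and 1.42, and at 5 dpa 1.00, 0.886 and 1.20. The gap at 1 dpa had narrowed by 3 dpa and was gone by 5 dpa, where the groups overlapped. The rise of 1.55 ± 0.14 (adjusted p = 0.00012) had the smallest adjusted p of any member in that comparison. Also higher at 1 dpa were utp25 (1.30 ± 0.22, adjusted p = 0.0014), utp15 (1.16) and nop14 (1.07), all parts of the processome.

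From 1 to 3 dpa all 15 processome probe sets had negative changes (median -0.72), and from 3 to 5 dpa all 15 again (median -0.39). Of all probe sets 54.8% and 45.5% lay below 0 in these steps. In the first step 14 of the 15 were lower with no overlap between the groups, as were 10.4% of all probe sets. Against unamputated fin 12 of 15 lay below 0 at 5 dpa, with a median of -0.36 and 3 called lower. Of all probe sets 63% lay below 0 in that comparison and 4.46% were called lower, with a median of -0.17. One of the 3 was nol6, a structural part of the processome, with ratios of 1.13, 1.14 and 1.40 before amputation, 2.09, 1.49 and 1.80 at 1 dpa, between 1.00 and 1.14 at 3 dpa and 0.488, 0.657 and 0.614 at 5 dpa. At 1 dpa every pool lay above the unamputated range and at 5 dpa every pool lay below it, and nol6 fell by 1.07 ± 0.16 at 5 dpa (adjusted p = 0.0014). wdr43 fell by 1.11 ± 0.17 (adjusted p = 0.0016) and utp3 by 1.02 (adjusted p = 0.0076). With centred arrays these 3 changes were -0.93, -0.97 and -0.88, all short of the 2-fold minimum, and the median of the role was -0.22.

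Large subunit factors followed the same order of days. At 1 dpa 15 of their 17 probe sets lay above 0 (median 0.53) and 4 rose, where 8.68% of all probe sets were called higher. The 4 were nop16 (1.01) and 3 of the 4 probe sets of bop1, which works in the PeBoW complex with pes and wdr12. One bop1 probe set read 0.999, 0.994 and 1.19 before amputation and 2.68, 1.74 and 2.54 at 1 dpa, a rise of 1.11 ± 0.17 (adjusted p = 0.001), and then 1.16, 1.13 and 0.982 at 3 dpa. It was the member called lower between 1 and 3 dpa (-1.07 ± 0.17, adjusted p = 0.0071), a call lost when either replicate b or e at 1 dpa or replicate c at 3 dpa was left out. The other called probe sets of bop1 rose by 1.19 and 1.01 and had 1 pool at 1 dpa close to the unamputated range (0.887 and 0.991), so both calls were lost without most single arrays.

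Its partners were not called at 1 dpa, at 0.18 for pes and 0.53 for wdr12, and at 5 dpa pes stood at -0.96 (adjusted p = 0.0064), just under the minimum. At 5 dpa 14 of 17 large subunit probe sets lay below the unamputated fin (median -0.48, or -0.34 with centred arrays), against 63% of all probe sets, and 2 fell, nop2 and gnl3l, where 4.46% of all probe sets were called lower. For nop2, a ribosomal RNA methyltransferase, the ratios were 0.942, 1.04 and 1.13 before amputation, 1.61, 1.12 and 1.29 at 1 dpa, 0.815, 0.755 and 0.732 at 3 dpa and 0.403, 0.509 and 0.510 at 5 dpa. Both later groups lay below the unamputated pools without overlap, and nop2 fell by 1.13 ± 0.15 at 5 dpa (adjusted p = 0.0009) and by 0.99 there with centred arrays. gnl3l fell by 1.21 ± 0.20 (adjusted p = 0.0022), while gnl3, the nucleostemin gene, changed by 0.46 at 1 dpa and -0.63 at 5 dpa without a call.

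RNA polymerase I subunits and the small nucleolar RNPs gave 1 higher call each at adult 1 dpa. Over all probe sets 8.68% were called higher there. Of 8 polymerase probe sets polr1a, the largest subunit, rose at 1 dpa (1.07, adjusted p = 0.023), a call that was lost after quantile normalization (0.69) and without any of 3 single arrays. polr1e changed by 0.82 at 1 dpa, polr1c by 0.52, polr1g by 0.61 and 0.45 and polr1h by 0.36. Both probe sets of polr1b lay wholly below unamputated fin there (-0.31 and -0.13), as did 36.8% of all probe sets. From 1 to 3 dpa all 8 polymerase probe sets had negative changes. At 5 dpa 1 of 2 probe sets of polr1b, the second-largest subunit, fell by 1.57 ± 0.22 (adjusted p = 0.001), from 1.18, 1.28 and 1.47 to 0.401, 0.553 and 0.383. Its other probe set read 0.00 there, and the average of both was -0.78. Of all probe sets 4.46% were called lower at 5 dpa.

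Among the snoRNP genes nop58 rose on 1 of 2 probe sets (1.40 ± 0.26, adjusted p = 0.0025, with 0.49 on the other). The methyltransferase fibrillarin (fbl) had ratios of 1.12, 1.50 and 2.00 before amputation, 2.77, 2.07 and 2.68 at 1 dpa and 0.963, 0.897 and 0.935 at 5 dpa. Its pools lay above the unamputated range at 1 dpa and below it at 5 dpa, but changes of 0.73 and -0.69 (adjusted p = 0.014 and 0.025) stayed under the minimum. The pseudouridine synthase dkc1 went the same way, with 0.58 and -0.81. At 5 dpa the 6 probe sets of this role had a median of -0.57 without a call, and nhp2, a partner of dkc1, stood at -0.50. Of the abundant nucleolar proteins, ncl changed by 0.70 at 1 dpa, npm1b by 0.21, and npm1a rose on 1 probe set (1.23 ± 0.19, adjusted p = 0.00097) but changed by -0.29 on its other.

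**Figure D4:**
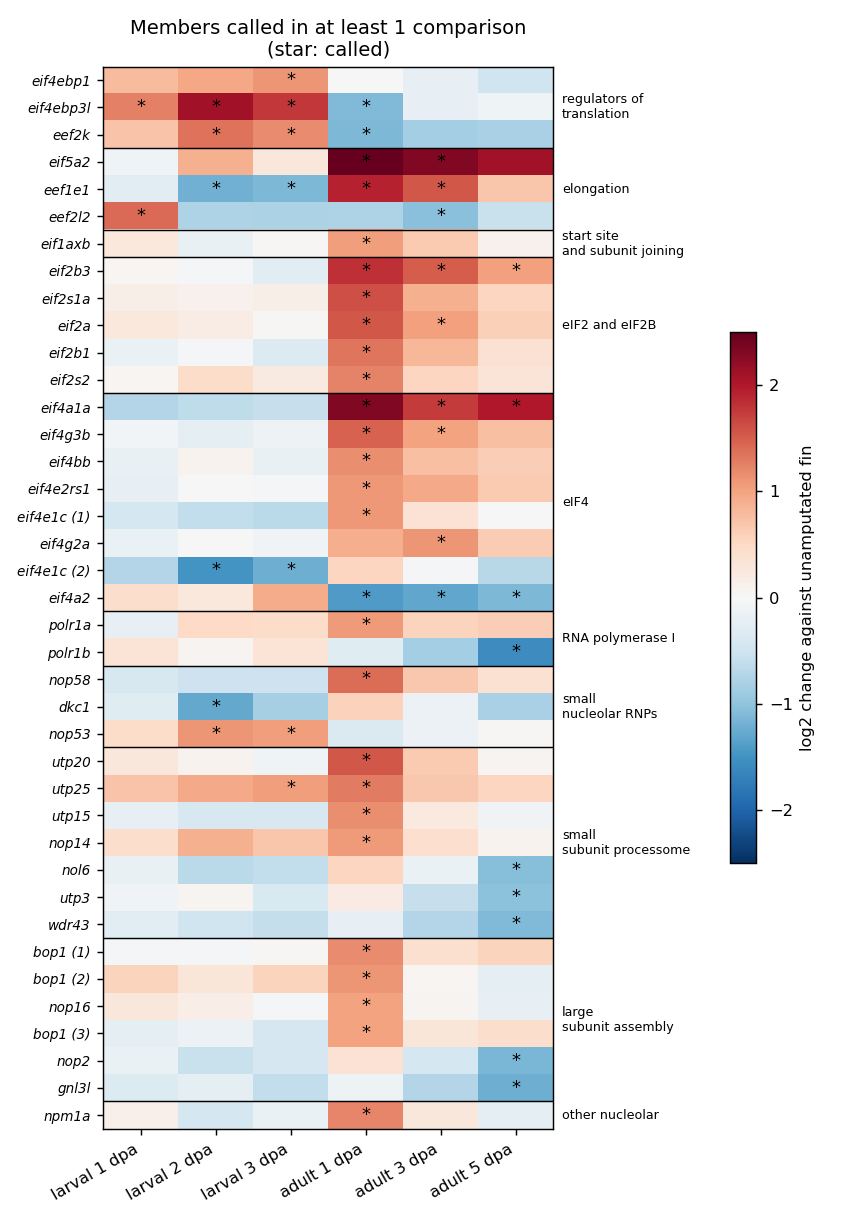
Log2 change against unamputated fin of the 39 probe sets (36 genes) called in at least 1 of the 6 comparisons, larval days in the left columns and adult days in the right; red is higher, blue lower, and a star marks a call. The adult 1 dpa column holds 24 higher calls, the adult 5 dpa column has its lower calls among nucleolar genes and eif4a2, and eif4ebp3l and eef2k are red in larvae and blue at adult 1 dpa.

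Other gene lists of the same pathway gave a mixed background in adults. None of 79 ribosomal protein probe sets was called at 1 dpa (median 0.10). In contrast 13 of 19 aminoacyl-tRNA synthetase probe sets rose there (median 1.29), 8 at 3 dpa and 2 at 5 dpa. Over all probe sets 8.68%, 8.1% and 7.01% were called higher on these 3 days. Among the synthetases wars1 rose by 2.67 and iars1 by 2.38 at 1 dpa. Of 17 DNA replication probe sets 9 rose at 1 dpa, and of 16 leukocyte probe sets 5 rose, with the mean leukocyte log2 ratio going from -0.04 to 0.09 on unamputated arrays to 0.23 to 1.02 at 1 dpa. Replication markers averaged -0.84 to -0.47 before amputation and 0.12 to 0.45 at 1 dpa. The part that these cells or cycling cells have in the rise of the translation genes was not tested.

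Larval fins gave few calls among these genes. At 1 dpa 2 members rose and none fell (1.5% called, against 4.01% of all probe sets, 2.43% higher and 1.58% lower), at 2 dpa 3 rose and 3 fell (4.51% against 12.5%, 6.23% higher and 6.32% lower) and at 3 dpa 5 rose and 2 fell (5.26% against 10.6%, 5.08% higher and 5.51% lower). In each case the called share was under that of the array as a whole, and the members' medians were 0.07, 0.05 and 0.02. The groups without overlap lean upwards at 1 dpa, with 36 members wholly higher and 11 wholly lower (27.1% and 8.27%, against 15.6% and 16.3% of all probe sets), and 79 of 133 above 0 where 44.6% of all probe sets were. At 2 dpa 40 were wholly higher and 27 wholly lower (30.1% and 20.3%, against 25% each), and at 3 dpa 27 and 23 (20.3% and 17.3%, against 19.3% and 19%). Past the adjusted p with no minimum change were 10 higher and 2 lower at 1 dpa (7.52% and 1.5%, against 7.15% and 6.38% of all probe sets). The same counts were 23 and 14 at 2 dpa (17.3% and 10.5%, against 16.5% and 15.1%) and 18 and 18 at 3 dpa (13.5% each, against 14.5% and 13.7%). Between 1 and 2 dpa 1 member fell (0.752% against 8.93%, 3.6% higher and 5.33% lower), which was a probe set of eef2l2, and none was called between 2 and 3 dpa (0.297% of all probe sets, 0.2% higher and 0.0968% lower). The limma count without a minimum change was 3 higher and 13 lower in the first of these steps (2.26% and 9.77%, against 12.6% and 10.8% of all probe sets). Without overlap 21 members were higher and 25 lower from 1 to 2 dpa (15.8% and 18.8%, against 22.4% and 18.5%), and 10 and 8 from 2 to 3 dpa (7.52% and 6.02%, against 7.74% and 7.5%).

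Of the 9 regulator probe sets 1, 2 and 3 rose at larval 1, 2 and 3 dpa. Over all probe sets 2.43%, 6.23% and 5.08% were called higher on these days. For eif4ebp3l the ratio was 0.534, 0.452 and 0.504 before amputation, 2.02, 0.977 and 0.835 at 1 dpa, 2.24, 2.10 and 2.08 at 2 dpa and 1.62, 2.17 and 1.35 at 3 dpa. All 9 regenerating pools lay above all 3 unamputated ones, and it rose by 1.25 ± 0.28 (adjusted p = 0.014), 2.11 ± 0.28 (0.00022) and 1.76. The 1 dpa value rests on 1 pool, since it was 0.87 without replicate 1. For eef2k the ratios were 0.880, 1.16 and 0.959 before amputation, 1.47, 1.61 and 1.84 at 1 dpa, 2.53, 2.89 and 2.26 at 2 dpa and 2.10, 1.64 and 3.32 at 3 dpa. Again no regenerating pool overlapped the unamputated ones, with rises of 1.36 ± 0.22 at 2 dpa (adjusted p = 0.00087) and 1.18 at 3 dpa (adjusted p = 0.0024; 0.90 without replicate 3). eif4ebp1 rose at 3 dpa (1.101 ± 0.11, adjusted p = 3.5e-05), from 0.505, 0.490 and 0.544 to 1.18, 0.984 and 1.15. It had already reached 0.78 at 1 dpa and 0.96 at 2 dpa. The further binding protein gene eif4ebp2 was not called in larvae. The lower muscle and erythrocyte markers and the DMSO exposure coincide with the 2 and 3 dpa values. At 1 dpa the muscle list had a median change of 0.81 and no call. Of 8 erythrocyte probe sets 2 rose and 1 fell at 1 dpa (median 0.61), and of 16 leukocyte probe sets 6 rose and 1 fell (median 0.55). The part of these tissue differences and of DMSO in the larval values was not tested on any day.

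Members that fell in larvae were eef1e1, dkc1 and 1 of 2 probe sets of eif4e1c. The ratio of eef1e1 was 2.07, 1.92 and 2.01 before amputation, 1.30, 1.81 and 1.93 at 1 dpa, 0.930, 0.774 and 0.900 at 2 dpa and 0.884, 0.767 and 1.14 at 3 dpa. The 2 and 3 dpa pools lay below all earlier ones, with a fall of 1.21 ± 0.17 at 2 dpa (adjusted p = 0.00035) and 1.12 at 3 dpa. dkc1 read 1.28, 1.38 and 1.20 before amputation and 0.515, 0.621 and 0.469 at 2 dpa, a fall of 1.28 ± 0.13 (adjusted p = 3.7e-05), and stood at -0.83 at 3 dpa. The eif4e1c probe set not called in adults fell by 1.50 ± 0.15 at 2 dpa (adjusted p = 3.1e-05) and 1.22 at 3 dpa (adjusted p = 0.00014). The other eif4e1c probe set was not called in larvae against unamputated fin. Of 17 replication probe sets 7 were called lower in the same larvae at 2 dpa (median -0.83), against 6.32% of all probe sets. Their mean was -0.91 to -0.82, against -0.06 to 0.09 before amputation. At 3 dpa 0 of the 17 were called (median -0.15), and 7 rose from 2 to 3 dpa, where 0.2% of all probe sets were called higher. Whether the members' falls go with these markers was not tested.

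Further larval rises were those of nop53, a large subunit factor by background knowledge, at 2 and 3 dpa (1.11 ± 0.21, adjusted p = 0.0022, and 1.04), of utp25 at 3 dpa (1.04, adjusted p = 0.017) and of 1 of 3 probe sets of eef2l2 at 1 dpa (1.41 ± 0.25). That eef2l2 probe set read 1.43, 1.87 and 1.06 before amputation, 3.03, 5.48 and 3.24 at 1 dpa and 0.790, 0.912 and 0.801 at 2 dpa, so that its rise was over a day later (-2.18 from 1 to 2 dpa). The average over its 3 probe sets was 0.54 at 1 dpa.

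The eIF3 complex moved a little in larvae without a call. Its 14 probe sets had median changes of 0.42, 0.47 and 0.38 at 1, 2 and 3 dpa, with 13, 12 and 13 above 0 (44.6%, 46.6% and 50.1% of all probe sets were), and without the minimum change 4, 8 and 5 passed the adjusted p upwards (7.15%, 16.5% and 14.5% of all probe sets did). In eif3eb, chosen after its values were seen, the ratios were 0.798, 0.763 and 0.761 before amputation, 1.44, 1.41 and 1.00 at 1 dpa, 1.19, 1.36 and 1.16 at 2 dpa and 1.26, 1.39 and 1.33 at 3 dpa. All 9 regenerating pools exceeded the 3 unamputated ones, with changes of 0.71, 0.68 and 0.78. The one probe set below 0 on all 3 days was that of eif3jb, also chosen after its values were seen, at -0.36, -0.48 and -0.50. Ribosomal protein probe sets had larval medians of 0.22, 0.31 and 0.28, with 0, 1 and 1 of 79 called.

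Adult and larval responses differed for part of the members when tested against each other. In the fit of all 24 arrays the adult change at 1 dpa exceeded the larval change for 24 members and was below it for 4 (21.1% called, against 17.9% of all probe sets, 8.92% higher and 9.01% lower), and at 3 dpa the counts were 11 and 6 (12.8% against 22.1%, 11.5% higher and 10.6% lower). The higher side at 1 dpa was 18% of members, against 8.92% of all probe sets. Wide differences on both days were those of eef1e1 (2.19 at 1 dpa and 2.68 at 3 dpa), eif2b3 (1.79 and 1.78), eef2k (-1.83 and -2.03), eif4a2 (-1.85 and -2.22) and eif4ebp3l (-2.36 and -1.97). Of the 3 members that fell at adult 1 dpa 2 rose at larval 2 dpa, eef2k and eif4ebp3l, which is 66.7% of either short list. Over all probe sets the same overlap took 13.3% of the adult and 15.8% of the larval list. With centred arrays neither of these adult falls was called, and the eif4ebp3l ratios at adult 1 dpa overlapped the unamputated ones. Of the 24 that rose at adult 1 dpa 1 fell at larval 2 dpa (eef1e1) and 1 rose at larval 3 dpa (utp25), or 4.17% of the adult list each, against 16.4% and 5.58% over all probe sets. Since age, labelling and vehicle differ between the series of arrays, none of these can be told apart from the stage of the fish.

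**Figure D5:**
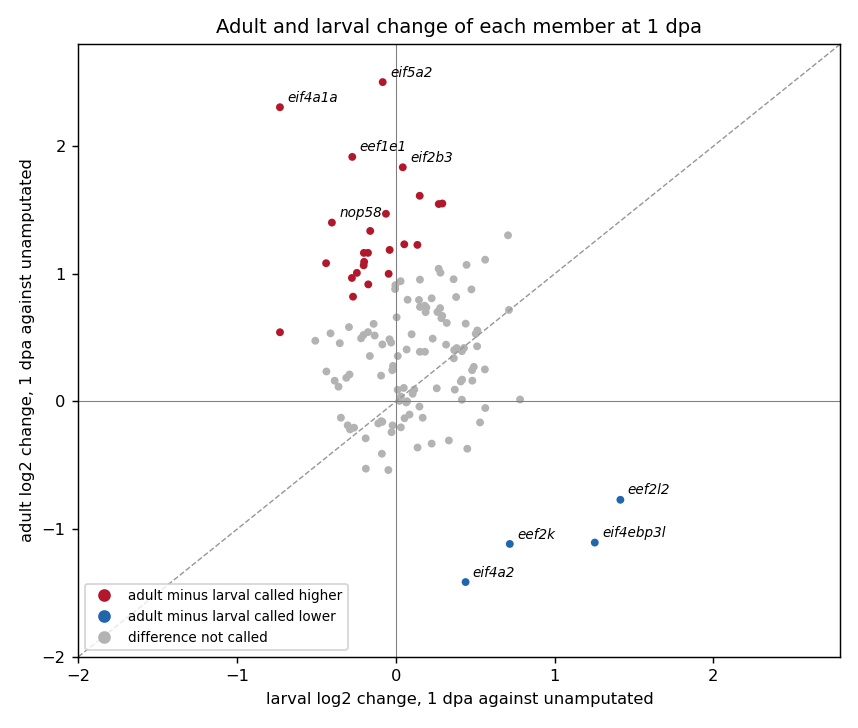
Log2 change at 1 dpa against unamputated fin of each member, larval on the horizontal and adult on the vertical axis, coloured where the adult-minus-larval difference was called (24 higher, 4 lower). Most points lie above 0 on the adult axis, where the median is 0.45, and near 0 on the larval axis, where it is 0.07; eif4ebp3l and eef2k lie at positive larval and negative adult values.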

How the data were processed

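RNA from 24 fin samples had been hybridised to Affymetrix zebrafish arrays. The authors deposited 1 value per probe set and array, a linear ratio. GCRMA is named in the submitters' processing notes, without a version, and neither the reference of the ratio nor the genome build is given in the sources used here. The log2 of each deposited ratio was taken here. Of 15617 probe sets 115 array controls were left out and no filter on low values was applied. Of the 15502 tested, 10795 carry 1 gene symbol, 135 several and 4572 none. Differences were fitted with limma 3.58.1 in R 4.3.3, per age over 12 arrays, or over 24 arrays for adult minus larval change.

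Changes after amputation, steps between days and adult-larval differences gave 12 comparisons. The members, roles and other gene lists were chosen with earlier results of these data known, so no test was made over a list. The text names, per comparison with unamputated fin, up to 12 called rises and 12 called falls, 5 each for steps and age differences, and fixed genes of known role. Other genes named, which include those of eIF3, were chosen after their values were seen. Roles in the nucleolus, eIF2 and other groups were assigned by symbol. By that assignment nop53 is counted with the snoRNPs, and eif5a2 and eef1e1 with elongation.

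Adult replicates a, b and c at 3 and 5 dpa deviated together (r = 0.433, 0.216 and 0.156) and were treated as paired in an alternative fit. Same-numbered larval replicates were treated likewise. Arrays give no counts, so precision is limited by the 3 arrays per group. Alternatives were array centring, quantile normalization, a floor on the ratio, a filter on dim probe sets, no minimum change, averaged probe sets, fits of 2 groups alone, the replicate block and single arrays left out. No sequences are shown, since none were used here.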

Additional observations from a re-analysis of the deposited data

Results flagged for a closer look

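In the fit of all 24 arrays the adult change after amputation differed from the larval change at the same day for 19 named member results. At 1 dpa the adult change was the higher one for eif4a1a (by 3.04 on the log2 scale), eif5a2 (2.58), eef1e1 (2.19), nop58 (1.80) and eif2b3 (1.79). It was the lower one for eif4ebp3l (-2.36), eef2l2 (-2.18), eif4a2 (-1.85) and eef2k (-1.83). At 3 dpa it was higher for eef1e1 (2.68), eif4a1a (2.32), eif2b3 (1.78), eif4g2a (1.18) and nop58 (1.18), and lower for eif4a2 (-2.22), eef2k (-2.03), eif4ebp3l (-1.97), eif4ebp1 (-1.30) and nop53 (-1.19). The values of eif4a1a, eif5a2, nop58, eef2l2 and eif4g2a come from 1 probe set of several. Larval and adult arrays also differ in RNA input, labelling and vehicle, which cannot be told apart from age.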

How the results depend on the processing

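No named result that was called in the main fit or in the alternative turned its direction. Changes of sign in results called in neither fit were not counted. The counts of called members listed next moved by over 1.5 times, except where only a split is given. With no minimum change, members past the adjusted p numbered 12, 37 and 36 at larval 1, 2 and 3 dpa, 16 from larval 1 to 2 dpa, 73, 44 and 47 at adult 1, 3 and 5 dpa, 13 from adult 1 to 3 dpa, and 47 and 37 for the adult-larval difference at 1 and 3 dpa. Centred arrays gave 4 at adult 5 dpa (2 higher, 2 lower) and a split of 9 higher and 1 lower at adult 3 dpa. Quantile normalization gave 1 at larval 1 dpa, 6 from larval 1 to 2 dpa (1 higher, 5 lower), 11 at larval 2 dpa (7 and 4), a split of 6 and 4 at larval 3 dpa, 12 at adult 1 dpa (11 and 1), 5 at adult 3 dpa (4 and 1), 4 at adult 5 dpa (2 and 2), 0 from adult 1 to 3 dpa and 18 for the difference at 1 dpa. Averaging probe sets gave 1 at larval 1 dpa and 0 for both steps from 1 dpa, and fitting the 2 groups alone gave 0 from adult 1 to 3 dpa.

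With single arrays left out the counts were 1 to 2, 6 to 8 and 6 to 10 at larval 1, 2 and 3 dpa, 1 to 4 and 0 to 0 for the larval steps, 18 to 28, 6 to 11 and 7 to 9 at adult 1, 3 and 5 dpa, 0 to 5 and 0 to 0 for the adult steps, and 22 to 30 and 15 to 22 for the differences. The count of 18 at adult 1 dpa came without replicate e. The step from adult 1 to 3 dpa had 5 without replicate d at 1 dpa and 0 without replicate e there or c at 3 dpa, and the larval step from 1 to 2 dpa had 4 without replicate 1 at 1 dpa.

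Same-numbered larval replicates deviated together weakly or not at all (r = -0.035 to 0.197, with 6 of 18 pairs over 0.1). With the replicate block the larval counts stayed 2, 6, 7, 1 and 0. With the block over the paired adult letters the count from 3 to 5 dpa stayed 0, and it changed no other call. No paired analysis was possible for adult comparisons with unamputated or 1 dpa fin because those groups share fewer than 2 labels. The shared label b at 1 dpa gave r = 0.048 with 3 dpa and 0.405 with 5 dpa.

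At adult 1 dpa and with no minimum change, combinations chosen after seeing the data gave 78 higher and 3 lower members with centred arrays, 60 and 4 after quantile normalization, and 46 to 63 higher with single arrays left out. The 3 arrays per group limit all of these values. The unstated reference of the ratio, the shift of the adult arrays as a whole and dim probe sets limit the reading of small changes, and no count or depth stands behind a value.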

Other observations

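Translation genes outside the chosen symbols gave further values. A list for the stress response that acts through eIF2 held 11 probe sets. At adult 1 dpa 1 of them rose, 2 fell and 8 were not called. Of all probe sets 8.68% were called higher there and 7.4% lower. The rise was that of asns, an asparagine synthetase (1.27). Both falls were probe sets of ppp1r15a, which helps to reverse eIF2 phosphorylation (-2.30 and -1.70). At adult 3 dpa 4 of the 11 fell and 0 rose, where 6.19% of all probe sets were called lower and 8.1% higher. In larvae at 2 dpa chac1 rose by 1.94 and atf3 by 1.24, and the other 9 probe sets were not called. Of all probe sets 6.23% were called higher there. Of 17 probe sets for Myc and TOR genes none was called at adult 1 dpa, while 1 rose and 2 fell at 3 dpa. Over all probe sets 16.1% and 14.3% were called on these days. In larvae 1, 2 and 1 of the 17 rose at 1, 2 and 3 dpa, where 2.43%, 6.23% and 5.08% of all probe sets were called higher. The synthetase genes hars and rars1 rose at adult 1 dpa by 1.53 and 1.67, and no synthetase probe set was called in larvae on any day against unamputated fin.

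The replication markers pcna and mcm5 rose at adult 1 dpa by 1.52 and 1.47 and fell at larval 2 dpa (-1.58 and -1.99). The fin fold genes and1 and and2, which encode proteins of the actinotrichia, both rose at adult 3 dpa (4.16 and 6.68).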
